A study of Mus musculus with 4 samples.

Results

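Histone lysine methyltransferases and demethylases were followed across Treg cells with and without Nsd2. The main enzymes of lysine 36 of histone H3 and the Polycomb enzymes of lysine 27 were not part of the set. The set of 44 genes was given by name and matched to the deposited transcript rows by symbol or older symbol. All 44 had a row among the 14193 genes of the tables, 32 under the current symbol and 12 under an older one such as Mll1 for Kmt2a, Setd8 for Kmt5a or Suv420h1 for Kmt5b. The libraries were RNA-seq of Treg cells sorted from spleens of C57BL/6 mice: 2 of wild-type (WT) animals and 2 of animals in which Nsd2 was conditionally knocked out in Treg cells (cKO). Each library mixed RNA from at least 3 mice, and the labels give neither the age of the mice nor the Cre line or the deleted exons. No treatment is named for either group.

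Treg cells depend on the factor Foxp3 and hold immune responses in check, and Nsd2 writes dimethylation on lysine 36 of histone H3. The enzymes described here were grouped by other lysines or by their fold. Any activity of single members on lysine 36 was not considered. SET domain proteins and Dot1l transfer methyl groups from S-adenosylmethionine to lysine, and the flavin-dependent Kdm1 enzymes and the iron-dependent JmjC proteins take them off again. Methylation of H3 lysine 4 (H3K4) marks promoters and enhancers in use, that of H3 lysine 9 (H3K9) marks silent chromatin, that of H3 lysine 27 (H3K27) is the Polycomb mark, that of H3 lysine 79 (H3K79) follows transcribed genes, and that of H4 lysine 20 (H4K20) is tied to the cell cycle and to compact chromatin. Several further members carry the same catalytic fold but are known mainly for substrates other than histones.

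Values were RPKM, reads scaled to transcript length and to library depth, which allow levels to be compared between genes. The steps between low values put the depth at 19000000 to 21120000 reads per library, so the members stood on 31 reads for the lowest value of Setmar to 40211 for the highest of Kmt2d. Of the 42 members with a known transcript length, 39 had over 100 reads in every library. The targeted gene Nsd2 had WT values of 6.82 and 7.44 RPKM and cKO values of 3.46 and 4.27 RPKM, so both cKO libraries were lower and neither lacked the transcript. The deleted exons are not given, so reads outside them count too. Its log2 fold change was -0.74 ± 0.15 (SE; limma unadjusted p = 0.00305, adjusted p = 0.9998), with a 95% interval of -1.12 to -0.37. The targeted gene thus also missed the adjusted threshold. The Treg markers Foxp3, Il2ra, Ctla4, Ikzf2 and Tnfrsf18 were between 60.9 and 146 RPKM in every library. Of 8 B cell markers 4 were used here, Cd79b, Cd79a, Cd22 and Cd74, and all 4 were higher in both cKO libraries, with summed levels of 37.2 and 31.8 RPKM in WT and 41.4 and 41.5 in cKO. The 8 myeloid markers summed to 9.19 and 13.0 RPKM in WT, to 24.8 in cKO replicate 1 and to 8.27 in cKO replicate 2. Itgam among them did not exceed 0.322 RPKM in any library. Erythroid markers summed to 17.98 and 8.72 RPKM in the WT libraries and to 32.4 and 5.45 RPKM in the cKO libraries, and markers of CD8 T and NK cells to between 15.6 and 20.1 RPKM. Of 11 tested heat shock and immediate early genes, 10 were below 0, with sums of 1479 and 1790 RPKM for WT and of 1275 and 1092 RPKM for cKO. All 15 cell cycle genes had a log2 fold change above 0, beside 59.2% of all genes. After median-of-ratios scaling 13 of 15 did, beside 48.1%. The part of these transcripts in the members' values was not tested, and in bulk RNA fewer cells of a type and less RNA per cell cannot be told apart.

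No member passed the test for a difference between genotypes. Of 43 members with a mean of at least 1 RPKM, which all except Suv39h2 reached, 0 passed limma over 10688 genes at an adjusted p of 0.05, where 0% of all genes passed. Every member had an adjusted p of 0.9998, and 0 members had an unadjusted p under 0.05, against 3.11% of all genes. With 2 libraries a group an exact permutation test of a single gene cannot go below p = 0.333. Of the cKO means, 35 lay within 10% of the WT mean, and the ratio of cKO to WT ran from 0.849 for Kmt2c to 1.34 for Kdm8. Leaving out 1 library also gave 0 members called, while the count over all genes became 66 when WT replicate 1 was dropped and 38 when WT replicate 2 was. It became 21 on dropping cKO replicate 1 and 60 on dropping cKO replicate 2.

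The size of difference that these libraries leave possible was moderate. The 95% interval of the log2 fold change from limma included 0 for all 43 members, and for 28 of them it lay wholly between -0.5 and 0.5. The interval reached 0.28 to either side of the estimate for Kmt5a, the narrowest, and 0.56 for Kmt5c, the widest. A miss of the threshold therefore does not show equal levels. The groups did not overlap for 13 members, where 26.4% of all genes did not. In 6 of them the cKO libraries were the higher (17.4% of all genes) and in 7 the lower (9.06%). Those higher were Setd6, Smyd2, Kdm8, Setdb1, Kmt5a and Setd3, and those lower were Kmt2a, Setd7, Kdm5c, Prdm2, Jmjd6, Phf8 and Suv39h1. After median-of-ratios scaling, which shifts the median of all genes from 0.029 to -0.0056, the counts were 5 (13.1% of all genes) and 9 (12.7%). Setdb1 then overlapped, and Kmt2c and Kmt5b joined the lower side.

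**Figure D1:**
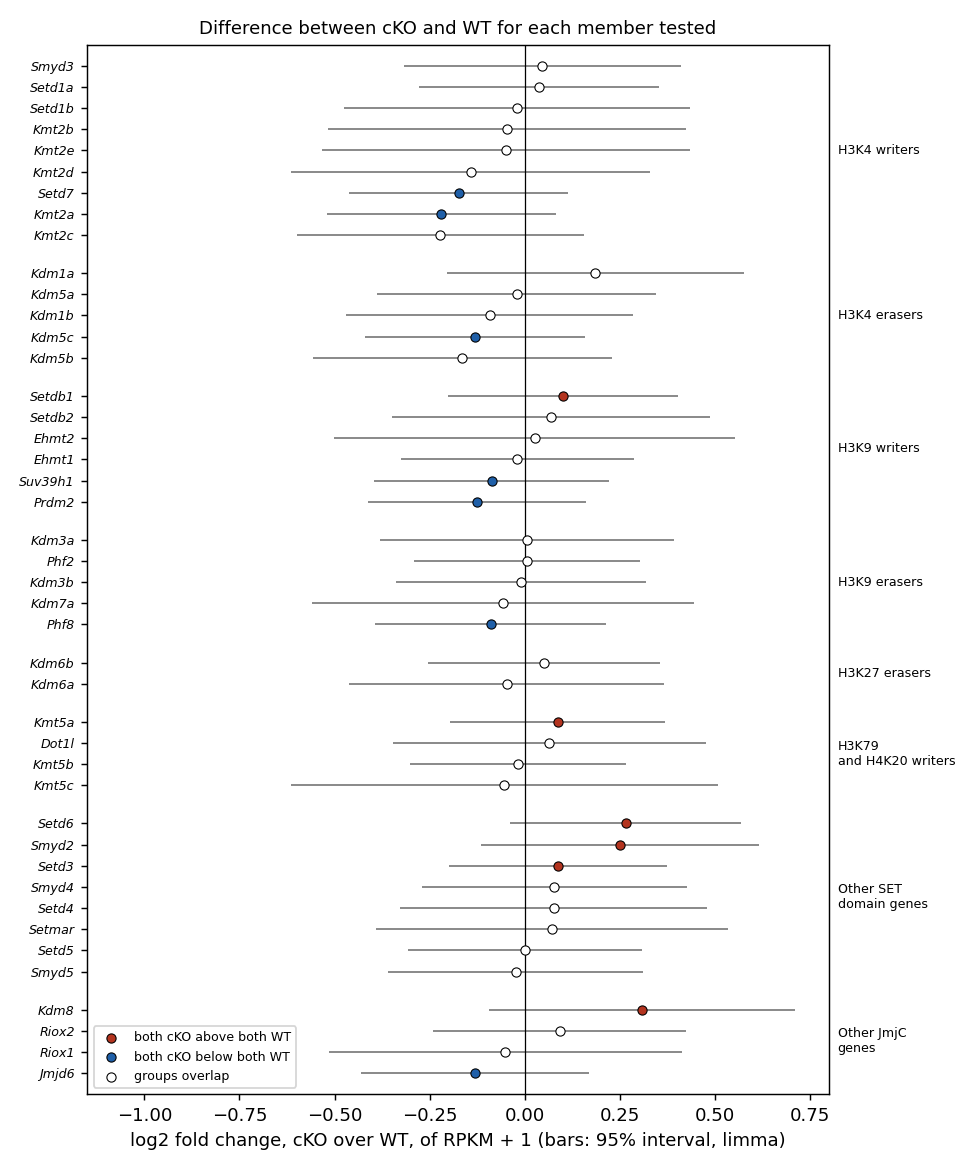
Log2 fold change of each of the 43 members tested (cKO over WT, of RPKM + 1) on the horizontal axis, grouped by histone site; points are estimates and bars 95% intervals from limma. Every bar crosses 0; filled points mark the 6 members with both cKO libraries above both WT libraries (Setdb1 overlaps after median-of-ratios scaling) and the 7 with both below.

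The median log2 fold change of the members was -0.018, beside 0.029 over all genes tested, and 20 of 43 members were above 0, beside 59.2% of all genes. After median-of-ratios scaling the median was -0.054 beside -0.0056, with 16 members above 0 beside 48.1% of all genes. The sign of the members' median was not stable to the loss of a library: it was 0.022 when WT replicate 1 was dropped, 0.0077 when WT replicate 2 was, and 0.0082 on dropping cKO replicate 1. The medians over all genes tested were then 0.035, 0.027 and 0.049. With cKO replicate 2 dropped, the members' median was -0.029, beside 0.020 over all genes. The 27 tested writers and other SET domain genes had a median of 0.0018 (-0.035 after scaling), and the 16 erasers and other JmjC genes one of -0.034 (-0.069 after scaling).

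The levels themselves spanned 2 orders of magnitude and were led by the large H3K4 writers. Kmt2d was the highest member in every library, with 75.2 RPKM as its lowest value against 69.4 RPKM as the highest of Kmt2a, the next in order. Kmt2a and Ehmt2 (47.99 to 66.9 RPKM) overlapped, as did Kmt2b (32.8 to 45.3) and Kmt2e (33.2 to 45.0). In all, 22 members had a mean over 20 RPKM, 13 lay between 10 and 20, and 9 lay under 10. The median member stood at 20.4 RPKM, above 71.0% of the genes tested, where the median gene was at 11.0 RPKM. At the low end were Suv39h2, Setmar, Kdm8, Smyd3, Smyd4 and Setd4, of which Smyd3 (3.08 to 3.64 RPKM) and Smyd4 (3.03 to 3.49) overlapped.

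**Figure D2:**
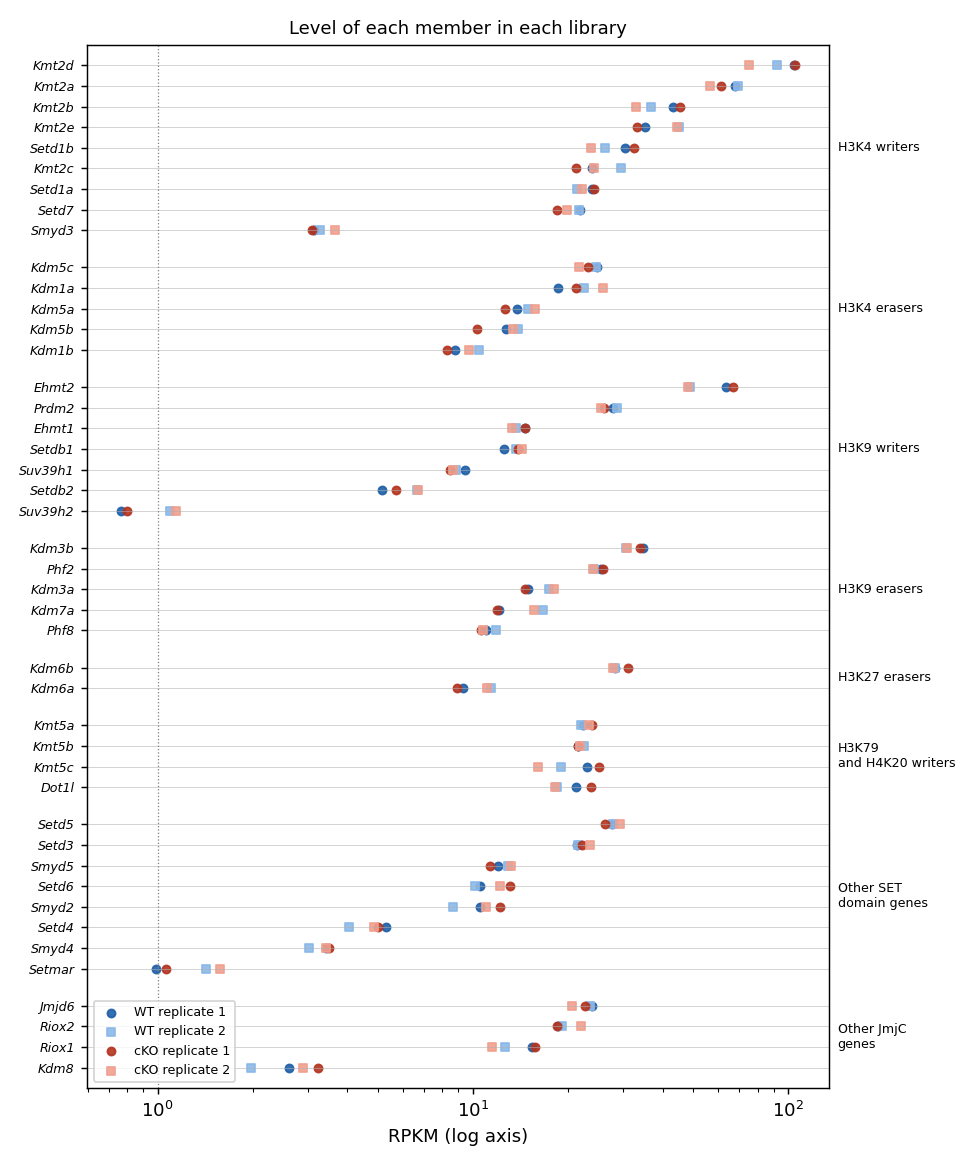
RPKM of all 44 members in the 4 libraries (log axis), grouped by histone site and ordered by mean within each group; circles are libraries numbered 1 and squares those numbered 2, blue for WT and red for cKO, and the dotted line is 1 RPKM. Kmt2d lies to the right of all others, Suv39h2 lies at the line, and circles and squares separate in 29 of the 43 members tested, the colours in 13.

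Among the H3K4 writers, 7 of 9 had a log2 fold change below 0, beside 40.8% of all genes, with a median of -0.049 (-0.087 after scaling). Kmt2e, a relative without known activity on H3K4, was counted among these 7 and gave both medians. Kmt2a, the catalytic subunit of the menin-containing MLL1 complex (GRCm38 chromosome 9, 44803355 to 44881352), had WT values of 67.9 and 69.4 RPKM and cKO values of 61.2 and 56.6 RPKM. Both cKO libraries were lower, with means of 68.6 ± 1.007 and 58.9 ± 3.21 RPKM (SD, n = 2) and a log2 fold change of -0.22 (95% interval -0.52 to 0.08, limma unadjusted p = 0.124). Kmt2c, which with Kmt2d writes monomethylation at enhancers (chromosome 5, 25271795 to 25498855), had WT values of 23.9 and 29.5 RPKM and cKO values of 21.2 and 24.1 RPKM. Here the groups overlapped by a narrow margin and the log2 fold change was also -0.22 (95% interval -0.60 to 0.16). It was -0.37 with WT replicate 1 left out and -0.076 with WT replicate 2 left out. Kmt2d (chromosome 15, 98831669 to 98874077) had WT values of 105 and 92.3 RPKM and cKO values of 105 and 75.2 RPKM, so its difference came from the libraries numbered 2.

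Setd7, a monomethyltransferase of H3K4 and of many proteins that are not histones (chromosome 3, 51515318 to 51560823), had WT values of 21.9 and 21.7 RPKM and cKO values of 18.5 and 19.9 RPKM. The WT pair was tight, both cKO values lay below it, and the log2 fold change was -0.17 ± 0.12 (SE; limma unadjusted p = 0.190). The other H3K4 writers were closer to even. Kmt2b, the paralog of Kmt2a, had means of 39.98 ± 4.60 and 39.0 ± 8.82 RPKM (SD, n = 2), and Kmt2e, a relative without known activity on H3K4, had means of 40.1 ± 6.90 and 38.8 ± 7.87 RPKM (SD, n = 2). Setd1a and Setd1b, the enzymes of promoter trimethylation, had cKO means at 1.03 and 0.995 of WT. The ratio was 1.05 for Smyd3, a lysine methyltransferase of the cytoplasm and nucleus.

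The H3K4 erasers had 1 member above 0 and 4 below. Kdm1a, the flavin-dependent demethylase also known as Lsd1 (chromosome 4, 136550533 to 136602787), had WT values of 18.7 and 22.4 RPKM and cKO values of 21.2 and 25.8 RPKM. The groups overlapped, and the log2 fold change was 0.19 ± 0.16 (SE), at 0.18 for number 1 and 0.20 for number 2. It ran from 0.050 with cKO replicate 2 left out to 0.32 with cKO replicate 1 left out. Kdm5c, an X-linked H3K4 demethylase (chromosome X, 152233198 to 152279102), had WT values of 24.7 and 24.6 RPKM and cKO values of 23.1 and 21.8 RPKM. Both cKO libraries were lower, with a ratio of means of 0.910 and a log2 fold change of -0.13 (95% interval -0.42 to 0.16). The autosomal paralogs Kdm5a (ratio 0.990) and Kdm5b (0.891) and the Lsd1 relative Kdm1b (0.931) had overlapping groups.

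The 4 X-linked members, Kdm5c, Kdm6a, Phf8 and Suv39h1, were all below 0, as were 40.8% of all genes. In 3 of them, all except Kdm6a, both cKO libraries were below both WT libraries, as in 9.06% of all genes. After median-of-ratios scaling these were the same 3, beside 12.7% of all genes. Log2 fold changes of the 4 members ran from -0.13 to -0.047 and none passed the test. Other X-linked genes of the marker, partner and sex-linked lists went both ways. Log2 fold changes were 0.12 for Ddx3x, 0.029 for Eif2s3x, 0.23 for Zmym3 and 0.010 for Alas2, and -0.027 for Hcfc1 and -0.080 for Foxp3. After scaling Eif2s3x and Alas2 were below 0 as well. Xist, the RNA of the inactive X chromosome, was at 0.0087 to 0.029 RPKM in the 4 libraries, and the Y-linked Ddx3y had WT values of 18.3 and 30.3 RPKM and cKO values of 19.3 and 27.01 RPKM. Eif2s3y, also Y-linked, had WT values of 22.4 and 28.1 RPKM and cKO values of 24.3 and 37.5 RPKM, with overlapping groups and a log2 fold change of 0.26. Kdm5d, the Y-linked paralog of Kdm5c, had WT values of 9.80 and 10.9 RPKM and cKO values of 10.3 and 11.8 RPKM, and Uty, that of Kdm6a, had WT values of 3.85 and 6.14 RPKM and cKO values of 3.38 and 5.61 RPKM. Transcripts of both Y-linked demethylase genes were thus present in every library.

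Of 7 H3K9 writers, 6 were tested and split evenly, 3 above 0 and 3 below (2 above after scaling, where Ehmt2 turned below 0). Ehmt2, known as G9a, the main dimethyltransferase of euchromatin (chromosome 17, 34898463 to 34914073), had WT values of 63.5 and 48.7 RPKM and cKO values of 66.9 and 47.99 RPKM. The 2 libraries of each genotype differed far more than the genotypes, whose means were 56.1 ± 10.5 and 57.4 ± 13.4 RPKM (SD, n = 2). Its partner Ehmt1 had means of 14.2 ± 0.619 and 14.0 ± 0.916 RPKM (SD, n = 2). Setdb1, which silences retroelements with Trim28 (chromosome 3, 95323525 to 95357202), had WT values of 12.5 and 13.7 RPKM and cKO values of 13.9 and 14.4 RPKM. The log2 fold change of Setdb1 was 0.10 ± 0.12 (SE).

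Suv39h1, which trimethylates H3K9 in constitutive heterochromatin (chromosome X, 8061171 to 8074760), had WT values of 9.46 and 8.83 RPKM and cKO values of 8.46 and 8.63 RPKM. The gap between the groups was narrow and the log2 fold change was -0.087 ± 0.12 (SE). Its paralog Suv39h2 had WT values of 0.766 and 1.098 RPKM and cKO values of 0.802 and 1.14 RPKM, too low for the test, with at least 64 reads in each library. Prdm2, a PR domain zinc finger protein also known as Riz (chromosome 4, 143107391 to 143212769), had WT values of 27.8 and 28.6 RPKM and cKO values of 26.02 and 25.5 RPKM. Its log2 fold change was -0.13 (95% interval -0.41 to 0.16). Setdb2 had overlapping groups and a ratio of 1.05.

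Log2 fold changes of the H3K9 erasers ran from -0.089 to 0.0069. Kdm3b, a demethylase of mono- and dimethylated H3K9 (chromosome 18, 34777008 to 34839370), had WT values of 34.6 and 30.6 RPKM and cKO values of 33.9 and 30.8 RPKM. Phf2 (chromosome 13, 48801750 to 48870885) had WT values of 25.4 and 24.2 RPKM and cKO values of 25.9 and 23.98 RPKM. In both genes the log2 fold change was under 0.01 in size, and the intervals were -0.34 to 0.32 and -0.29 to 0.30. Kdm3a, the paralog of Kdm3b, had a ratio of 1.008. Kdm7a, which also acts on H3K27, had one of 0.956, and Phf8, which also acts on H4K20, one of 0.935. Of these 5 genes, 2 were above 0, and 0 after scaling.

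The H3K27 demethylases counter the Polycomb mark. Kdm6a, also known as Utx (chromosome X, 18160862 to 18279936), had WT values of 9.32 and 11.4 RPKM and cKO values of 8.88 and 11.1 RPKM. Kdm6b, also known as Jmjd3 and inducible by inflammatory signals (chromosome 11, 69398508 to 69420367), had WT values of 28.3 and 28.3 RPKM and cKO values of 30.9 and 27.9 RPKM. The groups overlapped for both, with log2 fold changes of -0.047 ± 0.17 and 0.051 ± 0.12 (SE). The highest Kdm6b value was in cKO replicate 1, the library with the highest summed myeloid markers, and without it the log2 fold change was -0.022. The part of those cells in the Kdm6b value was not tested.

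Dot1l, the only known H3K79 methyltransferase (chromosome 10, 80755101 to 80795461), had WT values of 21.3 and 18.5 RPKM and cKO values of 23.7 and 18.2 RPKM, with overlapping groups. Kmt5a, which writes monomethylation of H4K20 and is tied to cell division (chromosome 5, 124439930 to 124462311), had WT values of 22.4 and 22.1 RPKM and cKO values of 23.95 and 23.4 RPKM. Both cKO libraries were slightly higher, the ratio of means was 1.07 and the log2 fold change was 0.087 ± 0.11 (SE). Over the 15 cell cycle genes the median log2 fold change was 0.26, and their part in the Kmt5a value was not tested. Kmt5b and Kmt5c write the higher methylation states of H4K20. Kmt5b (chromosome 19, 3767362 to 3818303) had WT values of 21.6 and 22.5 RPKM and cKO values of 21.6 and 21.9 RPKM. Kmt5c ranged from 16.1 to 25.1 RPKM, with both extremes in the cKO libraries.

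Of the other SET domain genes, 7 of 8 had a log2 fold change above 0, beside 59.2% of all genes. After scaling it was 6, where Setd5 turned below 0, beside 48.1%. The median was 0.077 (0.049 after scaling), beside 0.029 (-0.0056 after scaling) over all genes. Setd6, which methylates the NF-kB subunit RelA (chromosome 8, 95715634 to 95721507), had the lowest p of all members. It had WT values of 10.6 and 10.2 RPKM and cKO values of 13.1 and 12.2 RPKM. Both cKO libraries were higher, with means of 10.4 ± 0.278 and 12.7 ± 0.631 RPKM (SD, n = 2) and a log2 fold change of 0.27 (95% interval -0.038 to 0.57, limma unadjusted p = 0.0754). Smyd2, which methylates p53 and other proteins besides histones (chromosome 1, 189880492 to 189922495), had WT values of 10.5 and 8.65 RPKM and cKO values of 12.2 and 11.0 RPKM, again without overlap (ratio 1.21).

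Setd3, an actin histidine methyltransferase (chromosome 12, 108106431 to 108179345), had WT values of 21.4 and 21.5 RPKM and cKO values of 22.2 and 23.5 RPKM, a ratio of 1.07. Setd5 (chromosome 6, 113077262 to 113153432) had WT values of 27.6 and 27.8 RPKM and cKO values of 26.2 and 29.4 RPKM, so the cKO values straddled the WT pair. Smyd4, Smyd5, Setd4 and Setmar had overlapping groups and ratios between 0.985 and 1.095. Setmar rested on as few as 31 reads.

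Among the other JmjC genes, Kdm8, an oxygenase also known as Jmjd5 (chromosome 7, 125444620 to 125463651), had the largest ratio of any member at a low level. It had WT values of 2.61 and 1.98 RPKM and cKO values of 3.24 and 2.89 RPKM, with 90 reads behind the lowest value. The ratio of means was 1.34 and the log2 fold change of 0.31 had a 95% interval of -0.094 to 0.71. Jmjd6, a lysyl hydroxylase of splicing factors (chromosome 11, 116837432 to 116843767), had WT values of 23.9 and 23.6 RPKM and cKO values of 22.7 and 20.6 RPKM, lower in both. The ribosomal oxygenases differed less. Riox2 (chromosome 16, 59471753 to 59492532) had WT values of 18.7 and 19.2 RPKM and cKO values of 18.5 and 22.1 RPKM, and Riox1 had means of 14.0 ± 1.92 and 13.6 ± 3.02 RPKM (SD, n = 2).

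Promoter sequence was compared because the rule that chose the genes did not use it. RefSeq windows of GRCm38.p6 (250 bases before to 50 after a start) were found for 36 of the 44 members, 44 windows in all. The median window of the members held 28 CpG dinucleotides and 64.2% GC, beside 21 and 61.0% in the windows of genes tested. The GC box GGGCGG, on either strand, was in 72.7% of member windows and 63.8% of windows of genes tested. The CCAAT box, spelled CCAAT, was in 40.9% and 37.8%, and the TATA box, spelled TATAAA, in 2.27% and 6.73%. The ETS core CCGGAAG was in 15.9% and 19.8%. The YY1 core AAGATGG was in 7 member windows (15.9%) and in 7.73% of windows of genes tested, a spelling chosen after the counts of a longer one were seen. The members thus mostly had CpG-rich promoters without a TATA box in the window. Bases before the RefSeq start are shown for Kmt2a and Kdm8, with CpG in capitals. Each had the lowest p on its side among members with separated groups and 1 window that left at least 150 bases outside the gene span given above and outside every GENCODE M21 exon. Kmt2a (187 bases) is read from chr9:44881353-44881539 on the minus strand and Kdm8 (250 bases) from chr7:125444370-125444619 on the plus strand of GRCm38.p6.
Kmt2a: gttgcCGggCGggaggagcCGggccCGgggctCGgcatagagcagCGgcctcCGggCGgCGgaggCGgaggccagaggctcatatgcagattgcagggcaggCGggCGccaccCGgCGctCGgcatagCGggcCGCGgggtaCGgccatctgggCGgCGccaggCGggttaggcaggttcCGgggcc
Kdm8: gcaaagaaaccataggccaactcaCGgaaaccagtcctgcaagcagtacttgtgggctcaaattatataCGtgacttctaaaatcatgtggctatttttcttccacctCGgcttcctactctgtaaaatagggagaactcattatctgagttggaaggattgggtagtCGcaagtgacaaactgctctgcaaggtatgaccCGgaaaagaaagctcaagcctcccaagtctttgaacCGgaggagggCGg
The Kmt2a stretch held 23 CpG and 77.0% GC, and the Kdm8 stretch 7 CpG and 46.8% GC.

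Long transcripts of this family tended to lie below 0 and short ones above. The members are long, with a median of 5240 bases beside 2829 over the genes tested. All 10 tested members over 7 kb had a log2 fold change below 0, with a median of -0.13, while 640 genes of that length had a median of -0.035. These 10 were Kmt2a, Kmt2b, Kmt2c, Kmt2d, Kmt2e, Setd7, Kdm5a, Kdm5b, Prdm2 and Kdm7a. The next longest, Smyd3, Dot1l, Setd5 and Kdm6b (6871 to 6654 bases), were all above 0, at 0.0018 to 0.065. Setd5 turned below 0 after scaling. Of 15 members of 4 to 7 kb, 8 were above 0, of which Kdm3a and Phf2 also turned below 0 after scaling. Of 16 members under 4 kb, 11 were above 0, with a median of 0.077, beside 0.047 for 7167 genes. Ehmt2, in this class, turned below 0 after scaling. Across 41 members the log2 fold change and log2 length had a Pearson r of -0.62 and a Spearman rho of -0.58, and across 10049 genes -0.24 and -0.27. These are descriptions across genes that share the same 4 libraries, the class bounds were chosen after the values were seen, and no test of them was made. Transcript length moves with the differences of Kmt2a, Kmt2c and Setd7 on one side and of Setd6, Smyd2 and Kdm8 on the other, and its part in them was not tested.

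**Figure D3:**
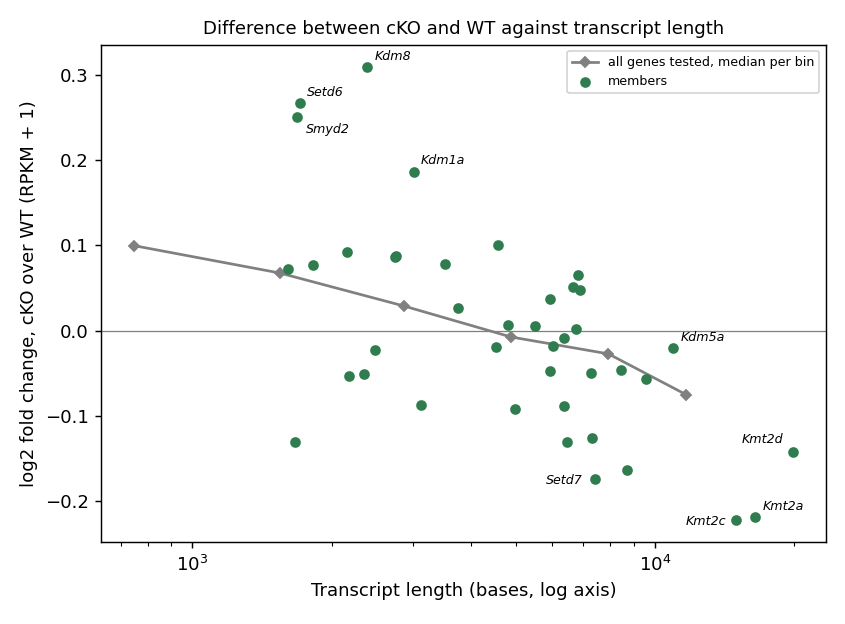
Log2 fold change (cKO over WT, of RPKM + 1) against transcript length in bases (log axis); green points are 41 members and grey diamonds the median of all genes tested in 6 bins of length. The 3 longest members, Kmt2d, Kmt2a and Kmt2c, lie between -0.22 and -0.14, and the grey medians fall from 0.099 in the shortest bin to -0.075 in the longest.

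The members, like all genes tested, differed more between libraries of different replicate number than between genotypes. The median size of the log2 difference was 0.15 between the libraries numbered 2 and those numbered 1, and 0.072 between genotypes. Over all genes tested these medians were 0.17 and 0.086. The difference by number was the larger of the pair in 30 of 43 members. Both libraries numbered 1 were above both numbered 2 for 13 members (28.9% of all genes), among them Ehmt2, Kmt2d, Kmt2b, Kmt5c, Setd1b and Dot1l. Both numbered 2 were above for 16 (32% of all genes), among them Kmt2e, Kdm7a, Kdm6a, Kdm1a, Kdm3a and Setmar. The labels do not say what the numbers stand for.

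This difference followed the base composition of the transcripts. Of 13 members under 48% GC, 12 were higher in both libraries numbered 2 and 0 in both numbered 1, and of 13 members over 55% GC, 9 were higher in both numbered 1 and 0 in both numbered 2. Over 41 members the difference and GC content had a Pearson r of -0.87 and a Spearman rho of -0.87, and over 10049 genes -0.73 and -0.77, as a description without a test. To show the contrast, 120 bases from the middle of the coding sequence are given for the members of lowest and highest GC, Kdm7a (39.6% of the transcript, bases 1351 to 1470 of the coding sequence) and Riox1 (61.4%, bases 844 to 963), from GENCODE M21 with CpG in capitals.
Kdm7a: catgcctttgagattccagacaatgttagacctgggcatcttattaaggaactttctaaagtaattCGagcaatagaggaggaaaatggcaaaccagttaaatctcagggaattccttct
Riox1: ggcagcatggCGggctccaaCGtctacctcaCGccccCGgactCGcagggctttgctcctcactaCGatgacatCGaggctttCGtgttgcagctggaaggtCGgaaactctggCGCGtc
Kdm7a, with 1 CpG in this stretch, stood at 12.1 and 11.9 RPKM in the libraries numbered 1 and at 16.7 and 15.6 RPKM in those numbered 2, WT first. Riox1, with 11 CpG, stood at 15.4 and 15.8 RPKM in the libraries numbered 1 and at 12.7 and 11.5 RPKM in those numbered 2. The genotype values within each number were close for both genes. The log2 fold change itself was only weakly related to GC content, with a Pearson r of 0.19 over the members and 0.18 over all genes.

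**Figure D4:**
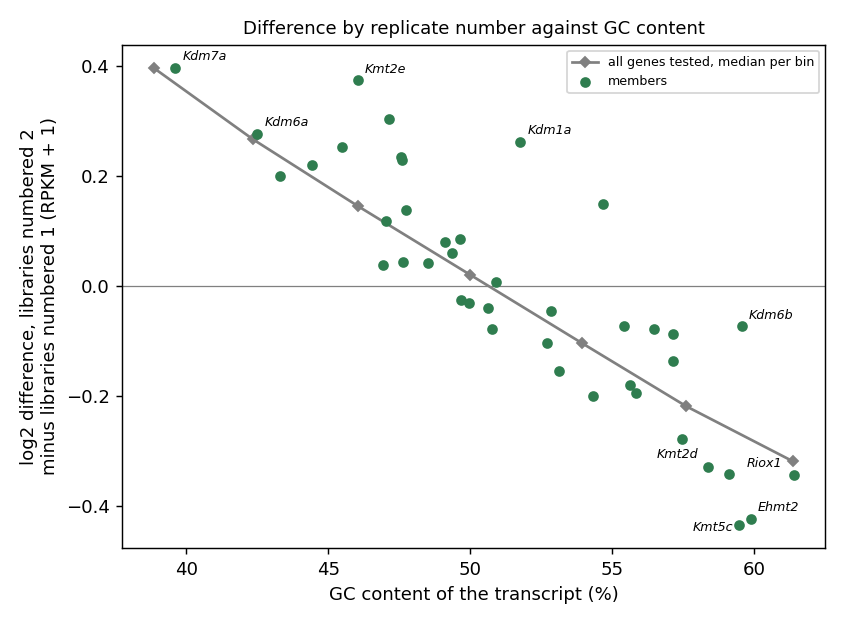
Log2 difference of the libraries numbered 2 minus those numbered 1 (mean over WT and cKO, of RPKM + 1) against GC content of the transcript in percent; green points are 41 members and grey diamonds the median of all genes tested in 7 bins of GC. Kdm7a at 39.6% GC lies at 0.40 and Ehmt2 at 59.9% GC at -0.42, and the members scatter along the grey line.

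Partners of these enzymes were read from lists chosen for the complexes they form, and 0 genes of any list passed the test. Over all genes tested, 59.2% were above 0 (48.1% after scaling), with a median of 0.029 (-0.0056 after scaling). Of 12 subunits of COMPASS and MLL complexes, which hold the H3K4 writers, 5 were above 0, with a median of -0.014 (-0.051 after scaling). Dpy30, a shared subunit, had WT and cKO means of 18.8 ± 0.986 and 21.2 ± 1.26 RPKM (SD, n = 2) and was higher in both cKO libraries, and Ncoa6 had means of 13.8 ± 1.30 and 12.7 ± 1.23 RPKM (SD, n = 2). Of 11 readers and partners of H3K9 methylation, 9 were above 0 (7 after scaling), with a median of 0.046 (0.010 after scaling). Uhrf1, which links H3K9 methylation to DNA methylation in dividing cells, had means of 8.97 ± 0.396 and 10.3 ± 0.972 RPKM, and Wiz, a partner of G9a, had means of 16.1 ± 2.71 and 18.1 ± 2.94 RPKM (SD, n = 2).

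Of 11 tested partners of Lsd1, 7 were above 0, with a median of 0.052 (0.015 after scaling). Hdac1, the deacetylase of the CoREST complex, had WT values of 66.6 and 65.6 RPKM and cKO values of 78.0 and 74.1 RPKM, and Zmym3 had WT values of 6.94 and 6.47 RPKM and cKO values of 8.28 and 7.78 RPKM, both without overlap. Kdm1a, Hdac1 and Zmym3 thus had ratios of 1.15, 1.15 and 1.20, and none passed the test. Of 6 partners of Dot1l, 1 was above 0, with a median of -0.064 (-0.10 after scaling). Aff1 and Aff4, scaffolds of the super elongation complex, had ratios of 0.916 and 0.921. Of 3 tested genes of H4K20 methylation readers, 1 was above 0 (0 after scaling). Trp53bp1, the repair factor that binds dimethylated H4K20, had a ratio of 0.889, and L3mbtl3, a reader of lower methylation states, one of 0.901, with both cKO libraries below both WT libraries for the latter.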

How the data were processed

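RNA-seq was measured in 4 libraries of splenic Treg cells, 2 WT and 2 cKO, grouped by their titles. The authors deposited RPKM values per RefSeq transcript; the unit was read from the values, since no header names it. The submitters' processing notes list HISAT2, DESeq2 and mm10 without saying what each was used for. The counting tool and its use of strand are not stated there or in the labels. Of 19291 rows, 59 belonged to members, 16663 others found their gene through the accession and 1399 through the symbol (RefSeq GRCm38.p6), and 1170 with no gene name, holding 10.9% of the RPKM, were left out. The transcript row with the largest mean stood for its gene. Testing took in 10688 genes whose mean reached 1 RPKM.

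log2(RPKM + 1) was fitted on genotype alone with limma 3.58.1 in R 4.3.3 (robust, mean-variance trend). Two-sided p-values were adjusted by Benjamini-Hochberg over these genes. Fold changes of low genes come out too small on this scale. Depth came from whole-read steps of values under 6 reads, of which 67.1% to 73.1% lay within 0.1 of a whole read. Lengths and GC content came from GENCODE M21 transcripts, found for 42 members. Each library is a pool, so p-values rest on variation among pools, part of which may be technical. Alternatives changed the pseudocount, filter, scaling, transcript row, block and libraries. The fit was tested on simulated data. Members and lists were chosen with earlier results of these data known.

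Values in every library are given for members past the threshold, the 10 of lowest unadjusted p, the 2 of highest mean in each site group and 11 always named; in each partner list, the 2 genes of lowest p are named. Kdm7a, Riox1 and Suv39h2, given by library, fall outside this rule and were chosen after their values were seen. Python 3.11.15, pandas 2.3.3 and matplotlib 3.10.9 served for tables and figures.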

Additional observations from a re-analysis of the deposited data

How the results depend on the processing

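The number of members called was 0 under all 10 alternatives run. The number of genes called was 0 as reported (332 with an unadjusted p under 0.05), also 0 with a pseudocount of 0.1, without the filter, with a minimum mean of 4 RPKM, with median-of-ratios scaling and with summed transcript rows, and 21 to 66 with 1 library left out, where the lone library of a group is assumed to vary like the other group. With the replicate number as a block it was 1, and 1638 genes (15.3%) and 7 of 43 members had an unadjusted p under 0.05; the deviations of same-numbered libraries correlated at 0.513 over genes, and 2 pairs do not show whether the numbers pair the samples. The members' median log2 fold change of -0.018 became -0.054 with median-of-ratios scaling. With 1 library left out it ran from -0.029 to 0.022. The move on scaling and the moves to above 0 exceed the SD of 0.012 between the medians of number 1 and number 2. The move to -0.029 does not. That SD rests on 2 values and does not measure the sampling spread of the members' median. Of the 24 members named by the rule, 14 kept their sign under all alternatives run for them, 7 changed it only when a library was left out, and Ehmt2, Phf2 and Setd5 also changed it with scaling; the 10 that changed lay within 1 standard error of 0. The lowest adjusted p of these members under any alternative was 0.21 (limma). Kdm8 was not tested under the stricter filter. Depth limits Setmar, Suv39h2 and Kdm8, with under 100 reads in a library.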

Other observations

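Several members had more than 1 transcript row, and rows of a gene share reads, so they are not separate measurements. Kmt5b had 7 rows at 2 levels. Of these, 4 lay between 21.3 and 22.5 RPKM in every library. The other 3, for shorter transcripts, lay between 10.1 and 13.7 RPKM, and in each of them the lowest value was in cKO replicate 1. Phf8 had a second row with WT values of 8.87 and 9.25 RPKM and cKO values of 8.54 and 8.35 RPKM, so the cKO libraries were lower in either row. The 3 rows of Setdb1 all had both cKO libraries above the WT libraries, and the rows of Ehmt1, Ehmt2, Kdm3a and Kmt5c all had overlapping groups. A further row of Suv39h2, for a noncoding transcript and without a gene symbol, had WT values of 0.781 and 1.14 RPKM and cKO values of 0.817 and 1.18 RPKM.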
